A study of Mus musculus with 6 samples.

Results

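The 37 genes of the mouse mitochondrial genome were examined in 6 RNA-seq libraries of sorted cells. They were taken as every gene symbol that starts with mt-, which gave 13 mRNAs, 2 rRNAs and 22 tRNAs among 55401 genes in the count table. The libraries form a set A and a set B of 3 each, and they are called A1 to A3 and B1 to B3 by set and replicate. All mice were wild type (WT). The model was a dermatitis of both ears raised with MC903, a vitamin D analogue, at 2 nmol in 10 µL of ethanol daily from day 0 to day 6, with ethanol alone as the control. The sources used here do not say which set received MC903, so each difference is given as B relative to A. The gate took live CD45+ cells without lineage markers that carried CD49b and either FcεRIα or IgE, a basophil gate. The library labels name blood and the design text names ear skin. The extraction text speaks of pooled RNA, and whether the 3 libraries of each set are separate animals is not stated. The p-values therefore cover only the library-to-library spread, which may be technical.

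The mitochondrial genome is a small circle whose strands are each transcribed into long precursor RNAs. The precursors are cut mostly at the tRNAs that lie between the other genes, and most mRNAs then receive a short poly(A) tail. All 13 proteins are subunits of the respiratory chain or of ATP synthase, and they are made on mitochondrial ribosomes that contain the 2 rRNAs. The protocol names Smart-seq2, which primes on poly(A) and amplifies full-length cDNA, while the sample descriptions name 10x Genomics, so the library method is not certain.

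Each library held 46137963 to 63956911 counts in all. Levels are in CPM, a gene's counts divided by that total and multiplied by 1000000. A level of 3 counts, used as the detection floor, was 0.0469 to 0.0650 CPM. The labelled cell type did not match set A. Summed over 10 basophil markers, set A had 39.7 to 386 CPM and set B 1459 to 3209 CPM, Itga2 had no counts in any set A library, and Fcer1a, which binds IgE in its receptor, was counted 4, 0 and 0 times there. Markers of other cells ran high in both sets. The 10 monocyte markers summed to 37288 to 43932 CPM in set A against 25994 to 35168 CPM in set B. Most of that sum was Lyz2, at 39756, 32661 and 32015 CPM in set A against 22656, 22600 and 29746 CPM in set B. The 12 neutrophil markers summed to 2401 to 9830 CPM in set A against 12572 to 23441 CPM in set B. Ly6g was at 0 throughout. The 10 B cell markers overlapped, at 3628 to 5376 CPM in set A and 3774 to 5014 CPM in set B. In mixed cells a lower level can come from fewer cells of a type or from less RNA per cell, and these cannot be told apart.

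The genes lie close together and some share bases, which bears on how a read can be assigned. The coding strands are unequal: 12 mRNAs and 14 tRNAs lie on the strand annotated as plus, and mt-Nd6 with 8 tRNAs on the other. The lengths of 10 mRNAs are multiples of 3, while the other 3 end on the T that begins a stop codon. Poly(A) addition is known to complete such codons. The ends of those 3 and, for contrast, of mt-Nd1 are shown 5′ to 3′ from the transcripts of GENCODE M21, with the last codon or the part present in capitals.
mt-Co3: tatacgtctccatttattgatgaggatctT
mt-Nd4: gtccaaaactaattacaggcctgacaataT
mt-Cytb: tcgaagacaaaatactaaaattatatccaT
mt-Nd1: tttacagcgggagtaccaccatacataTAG

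The longest overlap joins mt-Atp8 and mt-Atp6, 2 subunits of ATP synthase read from a single mRNA in different frames. They share 43 bases, shown in capitals within the whole of mt-Atp8, which has 204 bases. The overlap of mt-Nd4l with mt-Nd4 is 7 bases, and mt-Nd5 and mt-Nd6 share 14 bases on opposite strands, again in capitals in the last 60 bases of each gene. Whether the counting used strand is not given, so reads over the mt-Nd5 and mt-Nd6 junction cannot be told apart. If strand was not used, a gene's counts may include reads from precursors of the opposite strand. That holds also for mt-Nd6 and the 8 tRNAs on its strand.
mt-Atp8: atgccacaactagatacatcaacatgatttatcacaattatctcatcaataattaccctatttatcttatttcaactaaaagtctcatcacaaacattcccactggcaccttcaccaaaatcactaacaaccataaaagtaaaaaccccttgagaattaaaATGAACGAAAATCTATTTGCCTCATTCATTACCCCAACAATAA
mt-Nd4l: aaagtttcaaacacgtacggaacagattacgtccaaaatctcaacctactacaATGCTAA
mt-Nd5: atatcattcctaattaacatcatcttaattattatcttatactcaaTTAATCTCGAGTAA
mt-Nd6: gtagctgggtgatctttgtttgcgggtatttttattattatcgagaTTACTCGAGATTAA

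A further ambiguity comes from the nucleus. A search of the annotated transcripts kept matches of at least 100 bases, longer than any tRNA, so it could not find copies of tRNAs. It found 21 nuclear transcripts that resemble a mitochondrial gene, and 7 of them matched their gene at 99% identity or more over the aligned bases. All 7 are annotated on chromosome 1, each copies a different mRNA, and in the mitochondrial genome those 7 mRNAs run from the last 483 bases of mt-Co1 to the first 876 bases of mt-Nd4. The 14 less similar transcripts reached at most 5.66 CPM. The only gene for an mRNA in that stretch with no such copy was mt-Atp8. Its last 43 bases, shared with mt-Atp6, also lie in the copy of mt-Atp6. A nuclear copy of mt-Atp8 that is not annotated as a transcript could not be found by this search. The copies of mt-Co2, mt-Atp6, mt-Co3, mt-Nd4l and mt-Nd4 were identical to the gene over 681, 678, 783, 294 and 876 bases. Over the aligned bases the copies of mt-Co1 (Gm29216) and mt-Nd3 (Gm28438) each differed by 1 base, A1066T and T3C. Positions are counted from the 5′ end of the mitochondrial transcript. Those single differences are shown in capitals. They are the only letters in the aligned stretches that separate a read of the gene from a read of its copy. The aligned stretch of mt-Co1 starts at base 1063. Earlier letters of the mt-Co1 and Gm29216 lines lie outside it and also differ, in lower case.
mt-Co1: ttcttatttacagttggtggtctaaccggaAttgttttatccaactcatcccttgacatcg
Gm29216: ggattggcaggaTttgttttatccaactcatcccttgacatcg
mt-Nd3: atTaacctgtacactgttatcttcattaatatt
Gm28438: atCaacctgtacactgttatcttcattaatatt

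The rRNAs were lower in every library of set B than in every library of set A, though the difference did not pass the adjusted threshold of 0.05. As deposited, they exceeded the mRNAs in A1 and A3, at 1.57 and 1.19 times the summed mRNA level. They stood at 0.659 to 0.863 times in the other 4 libraries. With the counts of the nuclear copies added to the mRNAs, the ratio was 0.465 to 0.859, so the rRNAs exceeded that sum in no library. mt-Rnr2 (ENSMUSG00000064339), the 16S rRNA of the large ribosomal subunit, was at 11243, 14270 and 10324 CPM in A1, A2 and A3 and at 6634, 6245 and 7129 CPM in B1, B2 and B3. It ranked 7 among all genes by mean CPM, and its sets did not overlap, with all of A above all of B, an order that 3.91% of all genes tested showed. mt-Rnr1 (ENSMUSG00000064337), the 12S rRNA of the small subunit, was at 3033, 3707 and 1679 CPM in set A against 979, 1078 and 1232 CPM in set B. Its sets did not overlap either, with A3 nearest to set B. The fitted log2 difference of B from A was -0.94 (SE 0.16) for mt-Rnr2 and -1.47 (SE 0.33) for mt-Rnr1. Neither passed: edgeR's quasi-likelihood test with Benjamini-Hochberg adjustment over 9196 genes gave an adjusted p of 0.508 for both (unadjusted p = 0.000943 and 0.00369).

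That fit called 0 mitochondrial genes in either direction, where 0.0217% of all genes tested were called higher in B and 0% lower. At an unadjusted p under 0.05 it counted both rRNAs and 2 of 13 mRNAs as lower and none as higher. Among all genes 1.32% were lower at that level and 5.05% higher. DESeq2 called both rRNAs lower (adjusted p = 2.90e-06 for mt-Rnr2 and 6.17e-06 for mt-Rnr1), against 1.13% of all genes called lower and 5.34% higher. Limma-voom called neither, with 0.0761% of all genes called lower and 2.12% higher. Its difference for mt-Rnr2 was -1.15 with an SE of 3.29, against an SE of 0.16 by edgeR and 0.19 by DESeq2. For mt-Rnr1 it gave -1.30 (SE 0.41). The cause of the wide SE of mt-Rnr2 was not tested. Over 17 alternative settings the adjusted p of each rRNA ran up to 0.999, and the fitted difference stayed between -1.15 and -0.80 for mt-Rnr2 and between -1.76 and -1.24 for mt-Rnr1.

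Per kilobase of transcript, mt-Rnr2 stood at 2.24, 2.32 and 3.71 times the level of mt-Rnr1 in A1, A2 and A3 and at 4.09, 3.50 and 3.49 times in B1, B2 and B3. Both rRNAs come from 1 transcription unit and enter the ribosome in equal number. A3 lay within the range of set B, so the ratio did not separate the sets. Summed, the rRNAs were at 14752 ± 3015 CPM in set A against 7766 ± 536 CPM in set B (SD, n = 3 each). Summed T cell, platelet and monocyte markers, the last mostly Lyz2, were also higher in A. Those of neutrophils were higher in B, and those of B cells overlapped. The 12 T cell markers summed to 996 to 1413 CPM in set A against 370 to 769 CPM in set B, with Cd4 at 0 throughout. The 10 platelet markers summed to 1256 to 1684 CPM in set A against 610 to 1038 CPM in set B. Hba-a1, an alpha globin gene of red blood cells, was at 197, 335 and 299 CPM in set A against 109, 59.4 and 143 CPM in set B. Reads may be divided between it and its near-identical paralog Hba-a2. The part of these genes in the lower rRNA levels was not tested.

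**Figure D1:**
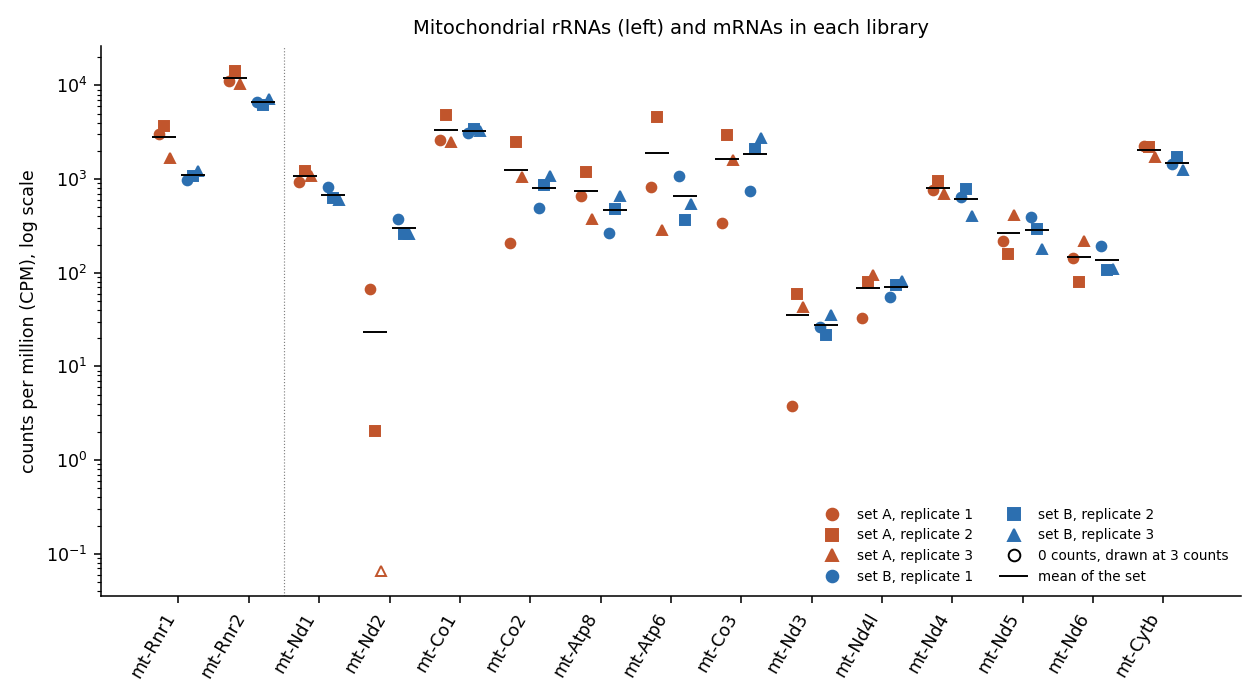
Level of each mitochondrial rRNA and mRNA in CPM (vertical log axis) in the 3 libraries of set A (red) and of set B (blue), genes in genome order within each class, lines at the set means, the open triangle at the 3-count floor for 0 counts. The rRNAs and mt-Nd1 are higher in all set A libraries than in all set B libraries, mt-Nd2 is lower, and A2 lies far above A1 for mt-Co2, mt-Co3 and mt-Atp6.

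Complex I, the NADH dehydrogenase, takes 7 mitochondrial subunits, and 2 of them separated the sets in opposite directions. Of all genes tested, 3.91% had A wholly above B and 10.2% had B wholly above A. mt-Nd1 was at 934, 1223 and 1089 CPM in set A against 815, 631 and 601 CPM in set B. It was higher in all set A libraries, with a log2 difference of -0.76 (SE 0.20, edgeR quasi-likelihood adjusted p = 0.508, unadjusted p = 0.00706). DESeq2 called it (adjusted p = 0.0118), as did limma-voom (adjusted p = 0.0433). The largest adjusted p in any setting was 0.999.

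mt-Nd2, another core subunit of the membrane arm, was at 67.7, 2.02 and 0 CPM in set A against 379, 261 and 261 CPM in set B. These are 3732, 107 and 0 counts against 18871, 15438 and 16708. It was lower in all set A libraries. The 0 in A3 is under the floor of 0.0650 CPM, a bound that holds only if each count is a separate fragment, which is not known. The log2 difference was 3.48 with an SE of 2.27, and the adjusted p was 1.00 (edgeR's quasi-likelihood test). Without A1 the difference was 8.10. mt-Tm, just before mt-Nd2, was highest in A3 at 5.96 CPM. mt-Tw, just after it, had 2, 3 and 2 counts in set A against 4, 8 and 5 in B, so it was also lower in all of A, at counts near the floor of 3. The closer of 2 nuclear transcripts that resemble mt-Nd2, Gm13339, was 96.7% identical over 510 bases and reached at most 0.851 CPM.

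The other complex I subunits overlapped between the sets. mt-Nd3 was at 3.76, 58.8 and 42.8 CPM in set A against 26.1, 21.8 and 35.1 CPM in set B, so that A1 alone was low. mt-Nd4l was at 32.7, 79.9 and 94.6 CPM in set A against 55.5, 74.0 and 81.1 CPM in set B, again with A1 lowest. Both have a near-identical copy in the nucleus. mt-Nd4 was at 770, 963 and 690 CPM in set A against 643, 789 and 399 CPM in set B. B3 was the lowest of the 6.
mt-Nd5 was at 219, 160 and 415 CPM in set A against 392, 293 and 178 CPM in set B. mt-Nd6, the only mRNA of the other strand, was at 144, 79.3 and 217 CPM in set A against 192, 108 and 110 CPM in set B. For both genes A3 was highest and A2 lowest, with the sets interleaved. Per kilobase mt-Nd6 stood at 1.30 to 2.31 times mt-Nd5. The log2 differences of these 5 genes lay between -0.52 (mt-Nd4, SE 0.29) and 0.03 (mt-Nd5, SE 0.46), each with an edgeR quasi-likelihood adjusted p of 1.00.

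Complex III, which passes electrons from ubiquinol to cytochrome c, takes a single mitochondrial subunit, cytochrome b. mt-Cytb was at 2277, 2199 and 1707 CPM in set A against 1444, 1736 and 1253 CPM in set B. The sets overlapped only in that B2 lay just above A3. The log2 difference was -0.60 (SE 0.21, unadjusted p = 0.0268, edgeR quasi-likelihood adjusted p = 0.575). DESeq2 gave it an adjusted p of 0.0570 as deposited and 0.0499 with nuclear copies added to the other genes, and the other settings ran up to 0.999.

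Complex IV, cytochrome c oxidase, takes the 3 largest of its subunits from the mitochondrial genome. mt-Co1, the catalytic subunit, was at 2621, 4813 and 2477 CPM in set A against 3125, 3412 and 3245 CPM in set B, the highest of the mRNAs by mean CPM. Only A2 stood apart. mt-Co2, which receives electrons from cytochrome c, was at 209, 2481 and 1063 CPM in set A against 491, 858 and 1086 CPM in set B. mt-Co3 was at 338, 2977 and 1595 CPM in set A against 741, 2085 and 2765 CPM in set B. In both genes A1 was lowest and A2 highest of all 6, so set A spanned set B. The log2 differences were -0.12 (SE 0.27), -0.69 (SE 0.78) and 0.13 (SE 0.78), each with an edgeR quasi-likelihood adjusted p of 1.00.

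Of the ATP synthase subunits, mt-Atp8 was at 663, 1198 and 373 CPM in set A against 263, 476 and 662 CPM in set B. mt-Atp6, the proton channel subunit, was at 828, 4594 and 285 CPM in set A against 1083, 365 and 540 CPM in set B. A2 was highest for both, and the sets overlapped. The log2 differences were -0.78 (SE 0.53) and -1.62 (SE 1.00), with an edgeR quasi-likelihood adjusted p of 1.00. Although they share an mRNA, per kilobase mt-Atp8 stood at 2.67, 0.870 and 4.37 times mt-Atp6 in A1, A2 and A3 and at 0.810, 4.35 and 4.09 times in B1, B2 and B3.

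Between genes the levels per kilobase fell into a broad range. mt-Rnr2 had a mean of 5883 CPM per kb over the 6 libraries, mt-Atp8 2969, mt-Co3 2232, mt-Co1 2124, mt-Rnr1 2043, mt-Atp6 1883, mt-Cytb 1547 and mt-Co2 1508. The complex I mRNAs were all lower per kilobase: mt-Nd1 had a mean of 922 CPM per kb, mt-Nd4 514, mt-Nd6 273, mt-Nd4l 234, mt-Nd2 156, mt-Nd5 151 and mt-Nd3 90.3. Of the 14 pairs of neighbours in that order, 3 kept it in all 6 libraries: mt-Rnr2 above mt-Atp8, mt-Nd1 above mt-Nd4 and mt-Nd4 above mt-Nd6. The other pairs changed places in at least 1 library. These means leave out the counts of the near-identical nuclear copies, and the places of the 7 genes that have one depend on them. With the copies added, mt-Atp6 had a mean of 4101 CPM per kb, mt-Co3 3637 and mt-Co2 2506, and the first 2 of these then stood above mt-Atp8.

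The counts of the nuclear copies differed widely between libraries of the same set. Summed over the 7 copies, the level was 11171, 93.8 and 5159 CPM in A1, A2 and A3 and 6723, 1992 and 65.2 CPM in B1, B2 and B3. As a share of the mRNA counts and copy counts together this was 55.1%, 0.448% and 33.9% in set A against 41.1%, 15.2% and 0.578% in B. Both sets thus held a library with nearly none (A2 and B3) and a library with a large share (A1 and B1).

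In A1 each copy held 41.4% to 90.4% of the sum of gene and copy, in A2 0.274% to 0.918% and in B3 0.0962% to 3.49%. B2 was mixed, from 0.0686% for mt-Nd4l to 75.1% for mt-Atp6. For mt-Co3, whose copy is Gm28437, the copy held 90.1%, 0.651% and 49.9% in set A against 69.1%, 9.88% and 0.728% in B. The pair with a different pattern was mt-Nd4l and Gm10222: the copy held 90.4% in A1 and 67.5% in B1 but 0.0915% in A3 and 0.0686% in B2, where every other copy took more. The sources used here do not say how reads that fit both places were assigned, and the cause of the split was not tested.

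**Figure D2:**
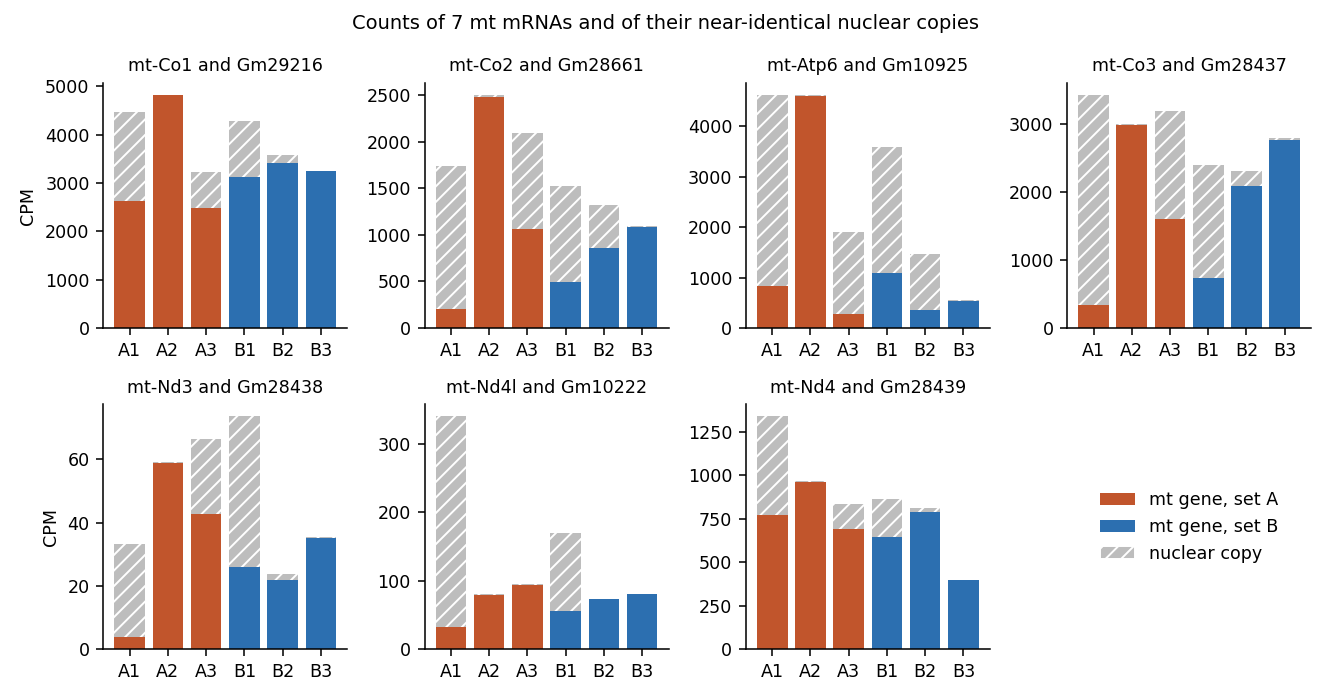
CPM (vertical linear axis, from 0, scaled per panel) of the 7 mitochondrial mRNAs with a near-identical nuclear copy, in coloured bars for each library, with the copy stacked in hatched grey. For mt-Co3 the gene alone ranges from 338 to 2977 CPM, and the stacked bars from 2314 to 3428 CPM.

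Adding each copy to its gene narrowed most of these genes. The highest library over the lowest fell from 11.9 to 2.28 for mt-Co2, from 8.81 to 1.48 for mt-Co3, from 15.7 to 3.11 for mt-Nd3, from 16.1 to 8.27 for mt-Atp6 and from 1.94 to 1.50 for mt-Co1. It widened for mt-Nd4, from 2.41 to 3.35, and for mt-Nd4l, from 2.89 to 4.60. This sum was chosen after the values were seen.

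With the copies added, mt-Co2 was at 1739, 2504 and 2096 CPM in set A against 1528, 1319 and 1098 CPM in set B. Its sets then no longer overlapped, and the log2 difference was -0.78 (SE 0.18, unadjusted p = 0.00462, edgeR quasi-likelihood adjusted p = 0.505). mt-Co3 was at 3428, 2997 and 3185 CPM in set A against 2398, 2314 and 2785 CPM in set B. Its sets also parted, and the log2 difference turned from 0.13 to -0.46 (SE 0.16, unadjusted p = 0.0283, edgeR quasi-likelihood adjusted p = 0.585). The sum for mt-Atp6 stayed overlapping, at 4620, 4626 and 1904 CPM in set A against 3580, 1465 and 560 CPM in set B. B3 was lowest and its mt-Atp8 level was not, so per kilobase mt-Atp8 over this sum was 3.95 in B3 and 0.245 to 1.09 in the other 5 libraries.

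In this form edgeR called 0 of 13 mRNAs in either direction (all genes: 0.0218% higher, 0% lower) and counted 4 as lower at an unadjusted p under 0.05, against 1.34% of all genes. DESeq2 called the same 4 lower, mt-Nd1, mt-Cytb, mt-Co2 and mt-Co3, beside 1.2% of all genes lower and 5.34% higher. Limma-voom called mt-Nd1 and mt-Co2 lower, beside 0.0871% lower and 2.12% higher. Libraries of A lay wholly above B for mt-Nd1, mt-Co2 and mt-Co3, where 3.94% of all genes showed that order, and B wholly above A for mt-Nd2, where 10.2% did. Without the copies it was mt-Nd1 alone in the former order (3.91%) and mt-Nd2 alone in the latter (10.2%). The median log2 difference was -0.39 over the 13 mRNAs and -0.60 with the copies added, beside -0.06 and -0.05 over all genes tested. As deposited, the mRNA median was 0.09 without A2, and -0.13 both by limma-voom and with a replicate block. The medians over all genes tested were then 0.14, 0.87 and 0.48 in turn.

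**Figure D3:**
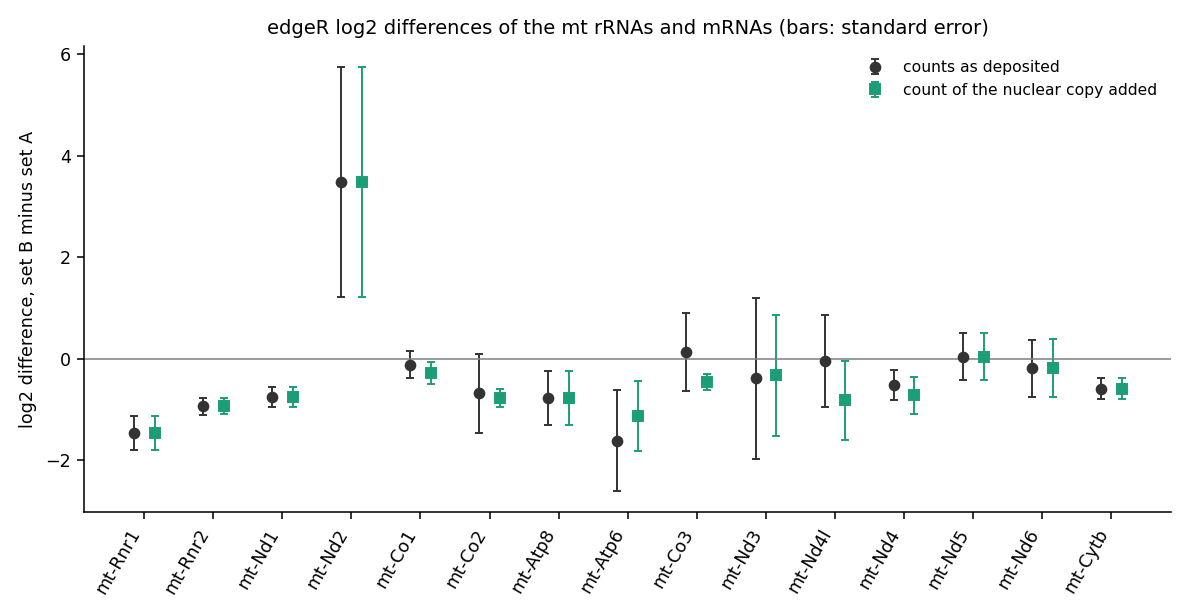
Fitted log2 difference of set B from set A (vertical axis) with its standard error for the 2 rRNAs and 13 mRNAs, from the counts as deposited (circles) and with the nuclear copies added (squares). Adding the copies shortens the bar of mt-Co2 from an SE of 0.78 to 0.18 and moves mt-Co3 from 0.13 to -0.46, and no gene passes the adjusted threshold.

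As classes, the rRNAs separated the sets and the mRNAs did not. The 13 mRNAs summed to 9106, 20828 and 10048 CPM in set A against 9649, 11110 and 11217 CPM in set B. In the counts as deposited A2 alone lay above set B. The mean difference of B from A was -2669 CPM over all 6 libraries and 1081 CPM without A2. With the nuclear copies added the sums were 20277, 20922 and 15207 CPM in set A against 16371, 13102 and 11282 CPM in set B. A1 and A2 then lay above all of set B and A3 did not, and the mean difference was -5217 CPM. The 6 mRNAs with no near-identical copy among the annotated transcripts (mt-Nd1, mt-Nd2, mt-Atp8, mt-Nd5, mt-Nd6 and mt-Cytb) were steadier as a sum. They summed to 4304, 4861 and 3801 CPM in set A against 3485, 3505 and 3066 CPM in set B. Every library of A lay above every library of B in that sum. Its largest parts were mt-Cytb and mt-Nd1. Of the 6, mt-Nd1 alone showed this order, mt-Nd2 showed the reverse, and the others overlapped.

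Over those 6 mRNAs the rRNAs stood at 3.32, 3.70 and 3.16 in set A against 2.18, 2.09 and 2.73 in B, again without overlap. Over all 13 mRNAs and the copies the ratio was 0.704, 0.859 and 0.789 in set A against 0.465, 0.559 and 0.741 in B, and B3 lay within set A. All 37 genes with the 7 copies took 3.36% ± 0.589 of counts in set A against 2.14% ± 0.233 in B (SD, n = 3 each), with no overlap. These sums were described and not tested.

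**Figure D4:**
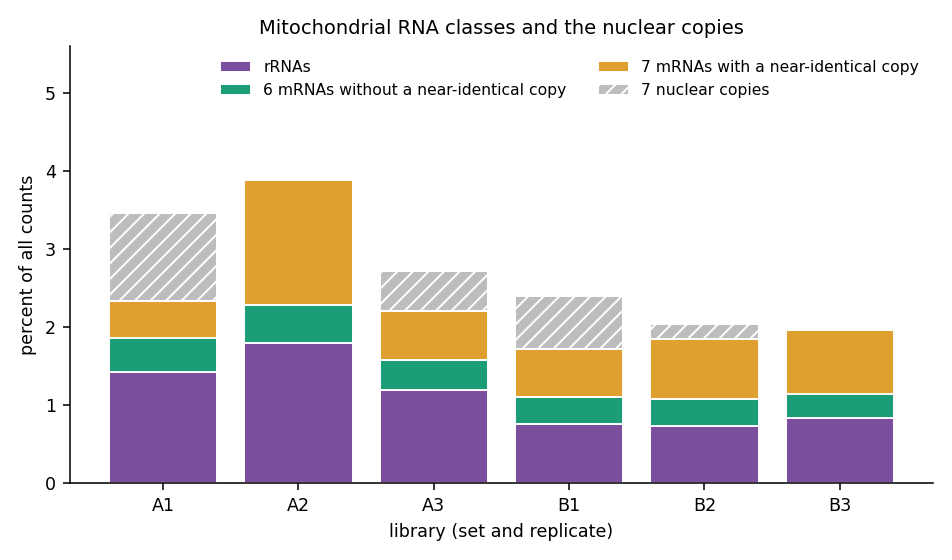
Percent of all counts (vertical axis) taken in each library by the 2 rRNAs, the 6 mRNAs without and the 7 mRNAs with a near-identical nuclear copy, and the 7 copies, stacked. The rRNA part is 1.20% to 1.80% in set A and 0.732% to 0.836% in set B, and the copies reach 1.12% in A1 and 0.00652% in B3.

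The tRNAs were scarce. The 22 genes summed to 30.7, 18.3 and 53.6 CPM in set A against 51.5, 25.6 and 28.6 CPM in set B, so the sets overlapped. They are 59 to 75 bases long, shorter than the 150-base reads, and mature tRNAs carry no poly(A) tail. In A1, A2 and A3, 12, 15 and 17 of the 22 had a count, and in B1, B2 and B3 19, 18 and 19 had. A few that the results turn on are shown whole, with the anticodon in capitals: mt-Tp and mt-Te as the most abundant, mt-Tt and mt-Td as the tested tRNAs whose sets did not overlap.
mt-Tp: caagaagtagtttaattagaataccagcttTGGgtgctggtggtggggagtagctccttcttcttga
mt-Te: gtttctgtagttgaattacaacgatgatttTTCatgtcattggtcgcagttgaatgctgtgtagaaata
mt-Tt: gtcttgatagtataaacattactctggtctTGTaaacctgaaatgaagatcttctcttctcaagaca
mt-Td: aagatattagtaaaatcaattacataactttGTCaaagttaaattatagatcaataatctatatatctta

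mt-Tp, the proline tRNA, was at 6.91, 6.45 and 4.99 CPM in set A against 14.1, 10.4 and 4.77 CPM in set B. mt-Te, the glutamate tRNA, was at 4.50, 4.16 and 9.71 CPM in set A against 12.4, 4.16 and 5.49 CPM in set B. Both lie on the minus strand, mt-Te between mt-Nd6 and mt-Cytb and mt-Tp after mt-Tt, and together they made 27.4% to 58.1% of the tRNA counts. The sets overlapped for both.
mt-Tt, the threonine tRNA, lies between mt-Cytb and mt-Tp. It had 298, 234 and 257 counts in set A against 1, 1 and 49 in B, or 5.41, 4.43 and 5.57 CPM against 0.0201, 0.0169 and 0.766 CPM. All 3 libraries of A were above all of B, an order that 3.91% of all genes tested showed. B1 and B2 were under the detection floor. The log2 difference was -4.30 (SE 1.94, edgeR quasi-likelihood adjusted p = 0.915). DESeq2 called it (adjusted p = 0.0382), beside 1.13% of all genes called lower, and the other settings ran up to 1.00. Without B3 the difference was -8.01. mt-Td, the aspartate tRNA between mt-Co1 and mt-Co2, had all of B above all of A, as 10.2% of all genes tested did. Both of those mRNAs have a near-identical nuclear copy, and the search could not find copies of tRNAs. mt-Td had 2, 18 and 16 counts in set A against 49, 70 and 49 in B. Its log2 difference was 1.95 (SE 0.98, edgeR quasi-likelihood adjusted p = 1.00).

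Several neighbouring tRNAs appeared together in some libraries and were missing in others. mt-Ta and mt-Tn, for alanine and asparagine, lie side by side on the minus strand. mt-Ta had 0, 1 and 132 counts in set A against 0, 83 and 159 in B. mt-Tn had 0, 1 and 170 counts in set A against 0, 110 and 198 in B. They were thus both near 0 in A1, A2 and B1 and both present in A3, B2 and B3. Next to them on the same strand, mt-Tc had 0, 28 and 103 counts in set A against 84, 95 and 103 in B, and mt-Ty 0, 22 and 38 in set A against 96, 53 and 39 in B. B1 held these but not mt-Ta and mt-Tn.

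The isoleucine, glutamine and methionine tRNAs lie in a row between mt-Nd1 and mt-Nd2. mt-Ti had 1, 10 and 305 counts in set A against 329, 18 and 22 in B. mt-Tq had 7, 0 and 120 counts in set A against 91, 41 and 50 in B, and mt-Tm 0, 0 and 275 in set A against 120, 40 and 64 in B. All 3 were highest in A3 or B1 and lowest in A1 and A2. The histidine, serine and leucine tRNAs mt-Th, mt-Ts2 and mt-Tl2, in a row between mt-Nd4 and mt-Nd5, had 9, 8 and 1 counts in B1 and none in the other 5 libraries.

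The tRNAs that flank the rRNAs did not follow them. mt-Tf, before mt-Rnr1, had 296, 0 and 0 counts in set A against 157, 0 and 22 in B, and mt-Tv, between the rRNAs, 328, 1 and 0 in set A against 0, 30 and 26 in B. mt-Tl1, after mt-Rnr2, had 125, 46 and 112 counts in set A against 88, 28 and 229 in B. Of the rest, mt-Tk had 1, 35 and 134 counts in set A against 3, 38 and 10 in B, and mt-Tr 0, 0 and 126 in set A against 194, 12 and 87 in B. These scatter within both sets.
The filter on low counts left out 6 tRNAs: mt-Th, mt-Ts2, mt-Tl2, mt-Tw, mt-Ts1 (0, 1 and 1 counts in A, 9, 18 and 2 in B) and mt-Tg (1, 5 and 3 in A, 2, 5 and 62 in B). Of the 16 tested, edgeR called 0, with none at an unadjusted p under 0.05. DESeq2 gave no p for mt-Tf, mt-Tv, mt-Ti, mt-Tq and mt-Tm, and of the other 11 it called mt-Tt. Limma-voom called 0. The median log2 difference of the 16 was 0.22, with 6 below 0, where 52% of all genes tested were below 0. That median was 1.67 by limma-voom, 2.01 with a replicate block and 2.31 without A3. It turned to -0.23 without A2 and -0.26 without B1. Over all genes tested the medians in those settings were 0.87, 0.48, 0.16, 0.14 and -0.07 in turn.

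**Figure D5:**
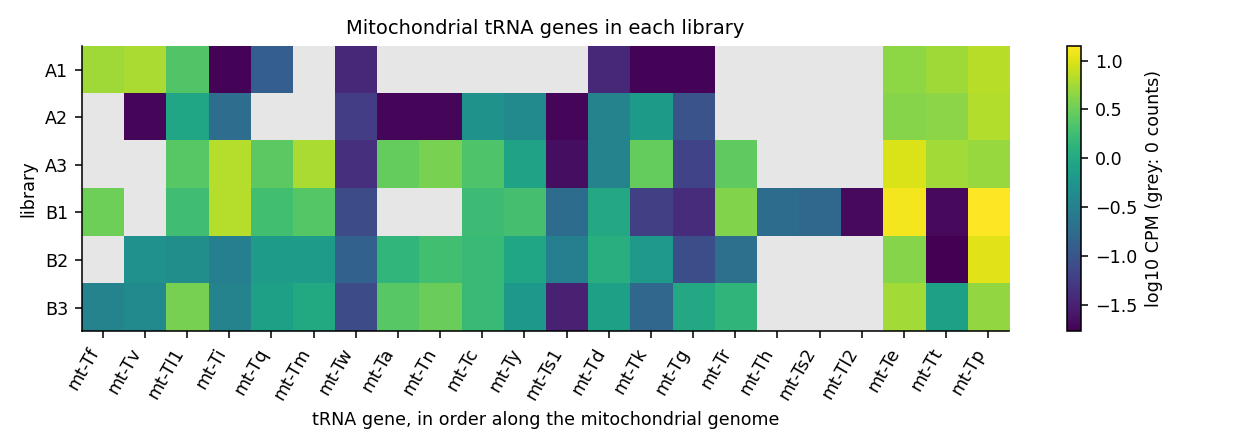
Level of each of the 22 mitochondrial tRNA genes (columns, in genome order) in each library (rows), as log10 CPM in colour, with 0 counts in grey. mt-Tt is bright in set A and near 0 in B1 and B2, and mt-Ta with mt-Tn exceeds 1 count only in A3, B2 and B3.

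Among nuclear genes that serve the mitochondrial genome, edgeR called none. For the machinery that copies and transcribes it, 11 genes were tested, with a median log2 difference of 0.59 beside -0.06 over all genes. Mterf3, a mitochondrial termination factor family member, was higher in B at an unadjusted p under 0.05 and was called by DESeq2 and limma-voom. The shares of all genes higher in B were 5.05% at that level, 5.34% by DESeq2 and 2.12% by limma-voom. For the processing, modification and decay of its RNA, 20 were tested with a median of 0.18, none at an unadjusted p under 0.05 and none called by the other tools. Hsd17b10, a subunit of the enzyme that cuts the 5′ ends of the tRNAs, had the highest mean there, at 0.236, 142 and 0.520 CPM in set A against 131, 121 and 130 CPM in set B. A1 and A3 were low and A2 was not. Rexo2, an RNA-degrading enzyme of mitochondria, was at 75.6, 133 and 0.499 CPM in set A against 119, 68.3 and 91.4 CPM in set B.

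Ssbp1, which coats single-stranded mitochondrial DNA, was at 49.4, 0.151 and 33.6 CPM in set A against 113, 38.5 and 44.2 CPM in set B. Tfb2m, which opens the promoter with the mitochondrial RNA polymerase, was at 63.5, 66.3 and 0.260 CPM in set A against 0.161, 74.1 and 8.24 CPM in set B. Neither separated the sets.
Of 78 tested mitochondrial ribosomal proteins edgeR called 0, 2 were higher in B at an unadjusted p under 0.05 (Mrpl47 and Mrps25), and the median was 0.15. Of all genes tested, 5.05% were higher at that level. DESeq2 called those 2 higher and Mrps22 lower, beside 5.34% of all genes higher and 1.13% lower. Limma-voom called Mrps25 higher, beside 2.12% of all genes. Their sum was 5317, 5693 and 5684 CPM in set A against 6336, 6377 and 7007 CPM in set B. All of set B lay above set A, the reverse of the rRNAs they bind. Mrpl33 had the highest mean, at 581, 292 and 555 CPM in set A against 459, 332 and 443 CPM in set B, followed by Mrps14, at 160, 302 and 308 CPM in set A against 308, 279 and 111 CPM in set B.

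Among 11 factors of mitochondrial translation and early complex assembly all 3 tools called 0, and the median was -0.96. Cox14, which binds newly made cytochrome oxidase subunit 1, was at 155, 146 and 160 CPM in set A against 364, 362 and 310 CPM in set B. Alone in the list, it was under an unadjusted p of 0.05, beside 5.05% of all genes higher at that level. It was higher in all libraries of B, as 10.2% of all genes tested were. The log2 difference was 1.07 (SE 0.30, edgeR quasi-likelihood adjusted p = 0.508). Coa3, which works with it, was at 0.581, 65.3 and 168 CPM in set A against 156, 280 and 276 CPM in set B. A3 lay above B1.
Of 10 tested mitochondrial tRNA synthetases edgeR called 0 (median 0.81). Rars2, for arginine, was higher at an unadjusted p under 0.05 and called by DESeq2 and limma-voom. The shares of all genes higher in B were 5.05%, 5.34% and 2.12% in turn. Lars2, for leucine, was at 2.79, 141 and 174 CPM in set A against 51.2, 30.5 and 31.6 CPM in set B. Tars2, for the threonine tRNA, was at 0.109, 0.0757 and 173 CPM in set A against 48.3, 39.6 and 11.3 CPM in set B. A1 and A2 had 6 and 4 counts.

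The nuclear subunits that join the 13 mitochondrial proteins also gave 0 calls, with each of the 3 tools. Complex I had 37 tested with a median log2 difference of 0.21, complex III 9 with 0.29, complex IV 12 with -0.12 and ATP synthase 16 with 0.03. Their sums overlapped between the sets, as for complex I at 4765, 7206 and 7070 CPM in set A against 8167, 6317 and 7716 CPM in set B. Complex II, which takes no mitochondrial subunit, had 4 tested with a median of 0.45, and its sum was 530, 671 and 721 CPM in set A against 1304, 982 and 993 CPM in set B. That sum was higher in all of set B.
At an unadjusted p under 0.05 the complex I list held Ndufa7 and Ndufv3, 1 in each direction, and complexes II to V held none. The shares of all genes at that level were 5.05% higher and 1.32% lower. Cox4i1, the nuclear subunit of complex IV that packs against subunit 1, was at 478, 501 and 470 CPM in set A against 758, 578 and 896 CPM in set B. Its log2 difference was 0.53 (SE 0.25, edgeR quasi-likelihood adjusted p = 0.971). Atp5a1, a catalytic-head subunit of ATP synthase, was at 804, 492 and 728 CPM in set A against 604, 404 and 481 CPM in set B, with overlap.

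Lists of the mitochondrial stress response (12 tested, median 0.25) and of regulators of mitochondrial biogenesis (6 tested, median -0.04) had 0 calls in edgeR. At an unadjusted p under 0.05 the former held 0 genes and the latter Esrra, higher in B. DESeq2 and limma-voom called Esrra and no stress gene. The shares of all genes higher in B were 5.05% at that level, 5.34% by DESeq2 and 2.12% by limma-voom. Atf4, the transcription factor of that stress response, was at 185, 18.7 and 108 CPM in set A against 59.9, 58.3 and 62.9 CPM in set B. The sets overlapped through A2. Cytosolic ribosomal proteins, for comparison, had 88 tested, 0 called, 5 lower at an unadjusted p under 0.05 and a median of -0.08. Of all genes tested, 1.32% were lower at that level. DESeq2 called 2 of them lower, beside 1.13% of all genes, and limma-voom 0.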

How the data were processed

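The authors deposited raw whole-number counts per Ensembl gene, not normalized, with 1 column per library; the submitters' processing notes name cutadapt 1.9, HISAT2 2.2.1 and DESeq2. The sources used here do not name the counter, genome build, annotation, use of strand or treatment of multiply placed reads, and no mitochondrial coordinates are printed. Symbols matched 55141 of 55401 identifiers. Low counts were more often 4 (5211 values) than 3 (819) or 5 (660), so the fragments behind a count are not known. Amplified copies carry no molecular identifier. The floor of 3 counts covers counting error only, and only if each count is a separate fragment.

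CPM used each column's total. Set B was compared with set A by edgeR 4.0.16 in R 4.3.3 (filterByExpr, TMM, glmQLFit with robust=TRUE, Benjamini-Hochberg over 9196 genes, threshold 0.05). SE is the absolute log2 difference over the square root of F. DESeq2 1.42.0, limma 3.58.1 voom with quality weights, other scalings and filters, a replicate block, counts divided by 4 and leaving out each library were the alternatives. Nuclear copies were sought with blastn 2.17.0 against GENCODE M21 transcripts (at least 100 aligned bases), and sequences and lengths come from those transcripts. Adding the copies was chosen after seeing the data. The members and lists were chosen with earlier results of these data known. All mitochondrial mRNAs, rRNAs and tested tRNAs were named. In other lists the rule named members past the threshold and the 2 highest. Other genes named (Gm13339, those at an unadjusted p under 0.05, Hba-a1 and Hba-a2, called by another tool or at 0 counts) were chosen after their values were seen. Of the 2 highest members some are left out, and marker lists are given as sums. The erythroid marker list as a whole is not reported here.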

Additional observations from a re-analysis of the deposited data

How the results depend on the processing

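No alternative edgeR setting called a mitochondrial gene. DESeq2 called 1 mRNA, 2 rRNAs and 1 tRNA and limma-voom 1 mRNA, all lower in B. Of all genes tested, DESeq2 called 1.13% lower and 5.34% higher, and limma-voom 0.0761% lower and 2.12% higher. The cause of the difference between the tools was not tested. Libraries with the same number in both sets had correlations of 0.0276, -0.0241 and 0.0255, within the -0.0531 to 0.0400 of the other pairs. So few libraries cannot exclude a shared animal or batch. A replicate block called 0. By limma-voom or with the block, both with TMM scaling, the median of all genes was 0.87 or 0.48 on the log2 scale. Under RLE scaling it was -0.16.

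Both rRNAs and mt-Nd1, mt-Nd2, mt-Atp8, mt-Nd4 and mt-Cytb kept their sign in all 17 settings. The log2 difference reversed for mt-Co3 (RLE -0.0193, DESeq2 -0.0193, copies added -0.46), mt-Nd3 (limma-voom 0.14, block 0.18), mt-Nd4l (library size alone 0.0230, limma-voom 0.0689, block 0.0403) and mt-Nd5 (RLE -0.0310, stricter filter -0.0172, DESeq2 -0.0310, limma-voom -0.13). Leaving out 1 library gave ranges of -0.32 to 0.25 for mt-Co1, -1.21 to 0.32 for mt-Co2, -2.20 to 0.11 for mt-Atp6, -0.37 to 0.91 for mt-Co3, -0.94 to 0.24 for mt-Nd3, -0.37 to 0.20 for mt-Nd4l, -0.27 to 0.43 for mt-Nd5, -0.53 to 0.12 for mt-Nd6, -1.11 to -0.28 for mt-Atp8, -0.68 to -0.25 for mt-Nd4, 2.89 to 8.10 for mt-Nd2 and -8.01 to -3.72 for mt-Tt. The difference of B from A in summed CPM then ran from -4780 to 1081 for mRNAs, -8360 to -5373 for rRNAs and -7.06 to 10.8 for tRNAs. The tRNA sum was also -0.957 with TMM scaling. With the stricter filter no tRNA was left to test. At tRNA depth, counts under 3 are not read as detected.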
